A study of Homo sapiens with 6 samples.

Results

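The genes described here are 10 that encode detectors of foreign RNA in the cytosol: the oligoadenylate synthetase genes OAS1, OAS2, OAS3 and OASL, the helicase receptors IFIH1, RIGI and DHX58, the related helicases DDX60 and DDX60L, and the kinase gene EIF2AK2. Members were the genes whose symbol in the array annotation was one of these 10, and each had 1 probe set, so 10 of the 18417 named genes of the array are covered. They were chosen by their co-culture response, measured on these same arrays, above all the opposite change of DDX60L between lines. Their levels and their differences between co-culture and culture alone are therefore given as a description. The fit over all genes included them, and its calls of them are given only as counts, from which nothing is read.

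Expression was measured on 6 arrays of 3 established human cell lines of choroidal uveal melanoma, 92.1, Mel 270 and Mel 290. In co-culture, each line grown in a well shared its medium with T cells of healthy volunteers, activated with CD3/CD28 beads and held above it in an insert with pores of 0.4 µm. The comparison group was the same line grown alone. Both groups were kept in serum-free medium for 64 h. For 92.1, 80000 cells were plated, against 100000 for Mel 270 and for Mel 290. The number of T cells per well was the same for all lines, so their ratio to the plated cells was highest for 92.1. Any effect of this on how far the differences vary between lines was not tested. There was 1 array per line and condition, so the 3 lines serve as the replicates and no line has repeat cultures. Signal is given on a log2 scale, where a difference of 1 is a 2-fold change, and levels of different probe sets are not compared with each other.

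RNA with a double strand or an exposed triphosphate end is a mark of viral infection. RIG-I (from RIGI) and MDA5 (from IFIH1) bind such RNA and signal through the mitochondrial adaptor MAVS to switch on interferon genes. The OAS enzymes make short oligoadenylates that lead to the breakdown of RNA, and the kinase PKR (from EIF2AK2) halts translation by phosphorylating eIF2. Most of these genes are themselves induced by interferons.

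The arrays had medians between 6.63 and 6.69. Genes were tested when their mean level reached 5.80, the 25th percentile of annotated probe sets, which left 13808 genes and kept all 10 members. Signal below that level is treated here as the background range. OAS2 lay below it on all 3 arrays grown alone and passed through its co-culture values, IFIH1 lay below it in 92.1 alone, RIGI in Mel 270 alone and DDX60L in the Mel 270 co-culture. Differences that involve these values are imprecise, and each is also given with low values raised to 5.80. T cell RNA was looked for through 16 T cell markers, whose mean level was 5.61 to 5.90 in the co-cultures and 5.66 to 5.85 alone. CD3D, CD3E, CD3G and PTPRC, which define T cells, were at 3.77 to 5.70 in the co-cultures and 3.78 to 5.62 alone, below 5.80 throughout. Of melanocyte markers, PMEL stood at 12.73 in co-culture and 13.08 alone in 92.1 and at 11.85 and 12.55 in Mel 270, but at 5.97 and 6.10 in Mel 290. MLANA, TYR and TYRP1 were likewise at most 5.05 in co-culture and 5.19 alone in Mel 290. SLC45A2, a further pigment gene, was at 5.27 in co-culture and 6.66 alone in Mel 290, against 5.46 and 6.56 in Mel 270. In Mel 290 PMEL, MLANA, TYR and TYRP1 were thus near or below the level for testing, SLC45A2 was above it alone, and the lineage regulators MITF (8.16 in co-culture, 8.96 alone) and SOX10 (7.25 and 6.84) were above it in both conditions.

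**Figure D1:**
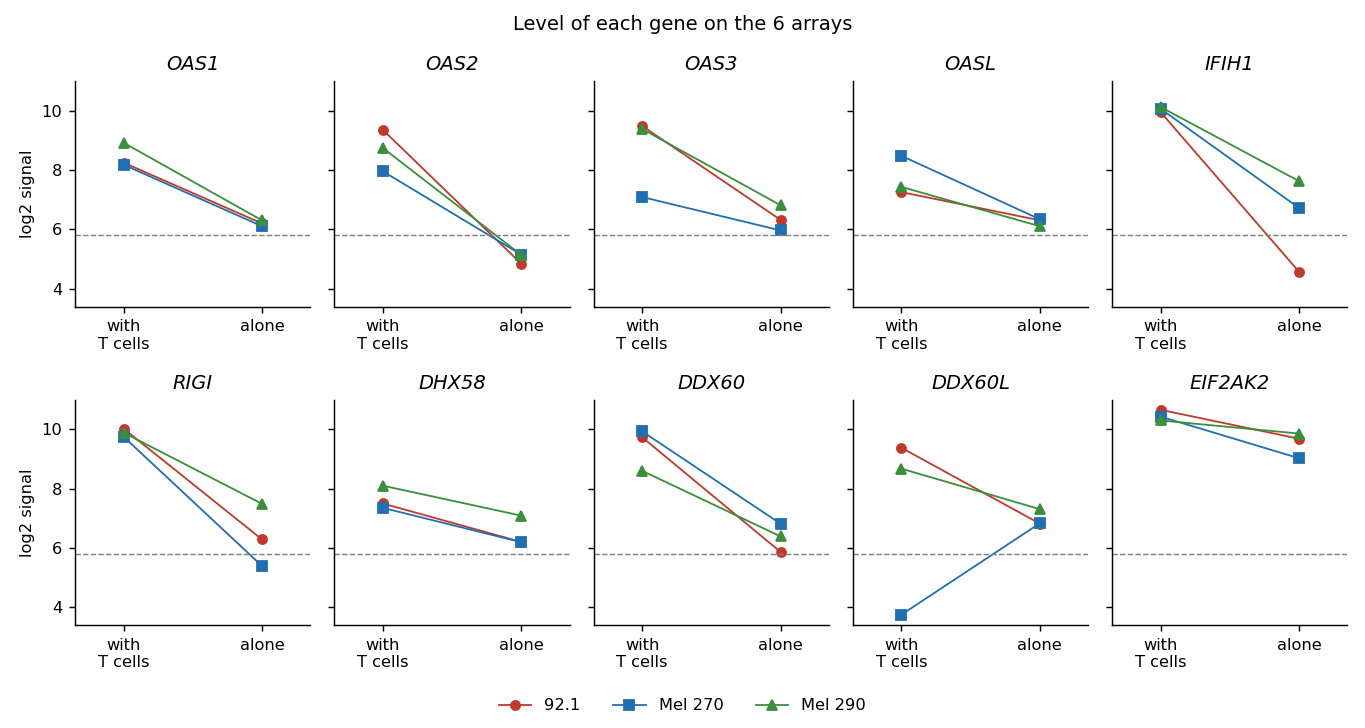
Level of each of the 10 genes (log2 signal) with T cells and alone, with 1 joined pair of points per line and a dashed line at 5.80, the level for testing. In 9 panels every co-culture point lies above every point alone; in the panel of DDX60L the Mel 270 co-culture lies at 3.75.

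Among the 10 genes, 9 were higher in co-culture in all 3 lines, as were 2236 of the 13808 tested genes. DDX60L was higher in 92.1 and Mel 290 and lower in Mel 270. For the same 9 genes every co-culture array lay above every array grown alone, as it did for 4.03% of the 13808 tested genes. At least a 2-fold higher level in every line was seen for 7 of the 10, against 0.898% of the tested genes. By line, 8 of the 10 were at least 2-fold higher in 92.1, 9 in Mel 270 and 9 in Mel 290, where 3.63%, 5.29% and 2.07% of the tested genes were. The median difference of the 10 genes was 2.86 in 92.1, 2.11 in Mel 270 and 2.31 in Mel 290, while the medians of all tested genes were -0.08, -0.06 and 0.01. Over all tested genes limma called 3 of the 10 higher (OAS1, OAS2 and DDX60) and 0.413% of tested genes higher, a count that was 5 without Mel 270 and 0 without the line in the model. The members were picked with this contrast in view, and OAS2 was tested only through its co-culture values. Nothing is therefore read from these counts.

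**Figure D2:**
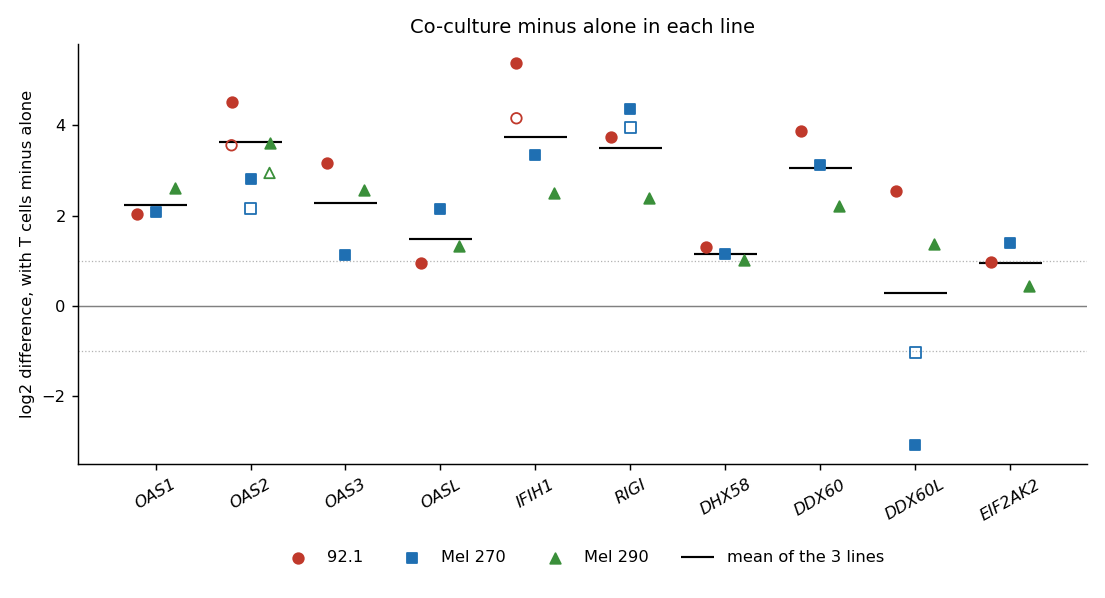
Difference between co-culture and culture alone (log2) for each gene and line, with the mean of the 3 lines as a bar and dotted lines at a 2-fold change. Open symbols give the same difference with values below 5.80 raised to 5.80; for DDX60L in Mel 270 it is then -1.03.

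The OAS genes come first. OAS1, whose product makes oligoadenylates on binding RNA, was at 8.25 in 92.1, 8.18 in Mel 270 and 8.93 in Mel 290 with T cells, against 6.20, 6.11 and 6.31 alone. The difference was 2.25 ± 0.32 (SD, n = 3 lines, 4.75-fold), and the lines differed little from each other in either condition. OAS2, the next enzyme of the family, reached 9.36, 7.96 and 8.75 in the co-cultures of 92.1, Mel 270 and Mel 290, against 4.84, 5.15 and 5.14 alone. All 3 values alone were in the background range, so the difference of 3.65 ± 0.85 (12.5-fold) is imprecise, and with low values raised it was 2.89 ± 0.70. The lines lay 1.40 apart in co-culture and 0.31 apart alone, and in co-culture 92.1 was highest and Mel 270 lowest.

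OAS3, the largest of the synthetases, had 9.49 in 92.1 and 9.39 in Mel 290 with T cells but 7.09 in Mel 270, against 6.32, 6.82 and 5.97 alone. The difference was 3.17 in 92.1, 2.57 in Mel 290 and 1.13 in Mel 270, a mean of 2.29 ± 1.05. Mel 270 in co-culture was thus only 0.28 above Mel 290 grown alone. OASL has lost the synthetase activity in humans and binds RIG-I through ubiquitin-like domains. It was at 7.26 in 92.1, 8.48 in Mel 270 and 7.44 in Mel 290 with T cells, against 6.31, 6.35 and 6.11 alone. Here Mel 270 had the largest difference, 2.14, next to 1.33 in Mel 290 and 0.95 in 92.1 (mean 1.47 ± 0.61). The order of the lines for OASL was thus not that for OAS2 and OAS3, where Mel 270 had the smallest difference.

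OAS1, OAS3 and OAS2 lie side by side in this order on chromosome 12. The measured genes beyond this row, taken by position and named after their values were seen, had small differences: DTX1, a Notch pathway gene, differed by 0.10 ± 0.08 and RASAL1 by 0.04 ± 0.09 on the OAS2 side, while PTPN11, a phosphatase gene, differed by -0.28 ± 0.11 on the OAS1 side, where RPH3A was below the level for testing. TRAFD1, 5 measured genes from OAS3, differed by 1.69 ± 0.40.

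Of the helicase receptors, IFIH1 and RIGI had the closest co-culture levels among the 10 genes, and as deposited these 2 and OAS2 had the largest mean differences. The order depends on low values: as deposited it was IFIH1, OAS2, RIGI and DDX60, and with low values raised it was RIGI (3.36), IFIH1 (3.34), DDX60 (3.07) and OAS2 (2.89). IFIH1 stood at 9.96 in 92.1, 10.07 in Mel 270 and 10.13 in Mel 290 with T cells, against 4.58, 6.73 and 7.63 alone. The lines thus spanned 0.17 in co-culture and 3.05 alone, and the difference was 5.38 in 92.1, 3.34 in Mel 270 and 2.50 in Mel 290 (mean 3.74 ± 1.48, 13.4-fold). With low values raised, the span alone was 1.83 and the difference in 92.1 was 4.16. RIGI stood at 10.02, 9.75 and 9.89 in the co-cultures of 92.1, Mel 270 and Mel 290, against 6.29, 5.39 and 7.49 alone. Its lines spanned 0.27 in co-culture and 2.10 alone (1.69 with low values raised), and its difference was 3.50 ± 1.00 (11.3-fold), largest in Mel 270 at 4.36 (3.95 with low values raised) and smallest in Mel 290 at 2.40. For both receptors the line that was lowest alone had the largest difference and Mel 290, the highest alone, the smallest, which follows by arithmetic when co-culture levels are so close.

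A span alone as wide as that of IFIH1 together with a span in co-culture as narrow was rare, but the counts rest on values in the background range. As deposited, IFIH1 was the 1 such gene of 491 with at least its span alone, and with low values raised there were 4, itself among them, of 1234. For RIGI there were 6, itself among them, of 1062 as deposited and 17 of 1472 with low values raised. These thresholds were taken from the genes' own values after these were seen, and no test was made. A narrower span in co-culture was not the rule among the 10 genes, where it held for 4 (IFIH1, RIGI, DHX58 and EIF2AK2), next to 42.2% of all tested genes, which is close to the share in the members. OAS3 went the other way, with a span of 2.40 in co-culture and 0.85 alone.

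**Figure D3:**
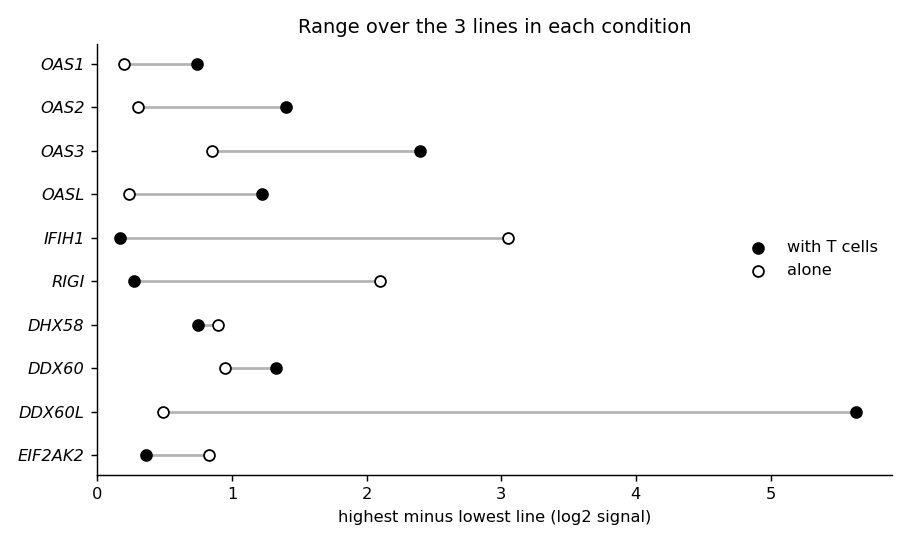
Highest minus lowest of the 3 lines (log2 signal) for each gene, filled points with T cells and open points alone. IFIH1 and RIGI span 0.17 and 0.27 with T cells against 3.05 and 2.10 alone (1.83 and 1.69 with low values raised), while DDX60L spans 5.63 with T cells (3.58 with low values raised) against 0.49 alone.

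The stretch of 250 bases before and 50 after the start site was looked at in RefSeq (GRCh38.p14), which gave a window for 7 of the 10 genes (OAS1, OAS3, IFIH1, RIGI, DDX60, DDX60L and EIF2AK2). The windows of the 2 receptors with the closest co-culture levels are shown. Capitals mark the letters of an interferon-stimulated response element, GAAANNGAAA, or of the same element with 1 base between its arms, GAAANGAAA, on either strand, or of a gamma-activated site, TTCNNNGAA, which reads the same on both strands. IFIH1 is at chr2:162318635-162318934 and RIGI at chr9:32526147-32526446, both on the minus strand and printed 5′ to 3′ along the gene.
IFIH1: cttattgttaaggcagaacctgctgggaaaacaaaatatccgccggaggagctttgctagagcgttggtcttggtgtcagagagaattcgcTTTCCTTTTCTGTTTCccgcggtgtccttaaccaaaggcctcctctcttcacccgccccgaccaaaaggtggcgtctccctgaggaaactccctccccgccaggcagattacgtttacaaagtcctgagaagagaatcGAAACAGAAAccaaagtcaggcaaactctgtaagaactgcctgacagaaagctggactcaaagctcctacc
RIGI: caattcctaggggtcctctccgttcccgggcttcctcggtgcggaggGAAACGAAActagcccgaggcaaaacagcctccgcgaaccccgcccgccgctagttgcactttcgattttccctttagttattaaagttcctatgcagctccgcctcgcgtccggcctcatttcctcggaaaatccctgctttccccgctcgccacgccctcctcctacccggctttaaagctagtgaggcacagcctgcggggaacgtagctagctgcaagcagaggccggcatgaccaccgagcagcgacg
The IFIH1 window held GAAANNGAAA 3 times, of which 2 overlap each other, and the RIGI window held it nowhere but held GAAANGAAA once, 203 to 195 bases before the start. GAAANNGAAA was found in 5 of the 7 windows (OAS3, IFIH1, DDX60, DDX60L and EIF2AK2), next to 3.57% of all 35116 windows. GAAANGAAA, a spacing looked for after the windows were seen, was found in 5 of 7 as well (OAS1, OAS3, RIGI, DDX60 and DDX60L; in OAS3, DDX60 and DDX60L it overlaps a GAAANNGAAA match) and in 3.12% of all windows. TTCNNNGAA was found in 2 (OAS1 and DDX60) and in 7.66% of all windows. Such a match describes letters only.

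DHX58 encodes LGP2, a receptor without the signalling domains of the other 2, which assists MDA5. It was at 7.50 in 92.1, 7.35 in Mel 270 and 8.10 in Mel 290 with T cells, against 6.20, 6.19 and 7.09 alone. The difference of 1.16 ± 0.14 (2.23-fold) varied little over the lines, from 1.01 in Mel 290 to 1.30 in 92.1. EIF2AK2, the gene of PKR, had levels of 10.66, 10.43 and 10.30 in the co-cultures of 92.1, Mel 270 and Mel 290, against 9.68, 9.03 and 9.86 alone. Its difference was 0.98 in 92.1, 1.40 in Mel 270 and 0.44 in Mel 290 (mean 0.94 ± 0.48, 1.92-fold), so it was at least 2-fold higher only in Mel 270, and the groups were 0.44 apart at their nearest arrays.

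DDX60 and DDX60L encode large helicases related to the SKI2 helicase of the RNA exosome, and both are known as interferon-induced genes with antiviral roles in human cells. DDX60 stood at 9.74 in 92.1, 9.93 in Mel 270 and 8.60 in Mel 290 with T cells, against 5.87, 6.82 and 6.39 alone, a difference of 3.07 ± 0.83 (8.37-fold). DDX60L stood at 9.38 in 92.1 and 8.67 in Mel 290 with T cells but at 3.75 in Mel 270, against 6.82, 7.31 and 6.83 alone. The lines were thus within 0.49 of each other alone and 5.63 apart in co-culture. The difference was 2.56 in 92.1 (5.89-fold higher), 1.36 in Mel 290 (2.58-fold higher) and -3.08 in Mel 270, which is 0.118 of the level alone, and its mean of 0.28 ± 2.97 hides these. With low values raised the difference in Mel 270 was -1.03. Without Mel 270 the mean was 1.96, without 92.1 it was -0.86 and without Mel 290 it was -0.26, so its sign rests on single arrays.

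The place of DDX60L among all genes cannot be fixed from a value in the background range. As deposited, 13 tested genes, itself among them, had a difference in Mel 270 as low as that of DDX60L, and with low values raised 551 did. Some genes differed at least 2-fold one way in 1 line and at least 2-fold the other way in both others. There were 6 such tested genes (0.0435%), and 4 with low values raised. In both counts DDX60L was the 1 gene with Mel 270 low and the other lines high. DDX60L was chosen for this opposite change, so its place there is no evidence that the pattern is rare. With low values raised, its Mel 270 difference of -1.03 is set by the level for testing and only just passes the 2-fold threshold. The Mel 270 co-culture was the lowest of the 3 co-cultures for 6 of the 10 genes (OAS1, OAS2, OAS3, RIGI, DHX58 and DDX60L), the middle one for IFIH1 and EIF2AK2 and the highest for OASL and DDX60. The genes whose differences in the 3 lines came nearest to those of DDX60L also depend on its low value. As deposited they were MTND2P28, CTH, ASNS, CDC42EP3 and ANKRD20A8P, at distances of 1.88 to 2.52 (Euclidean, log2 units, over 3 lines). With low values raised they were NLRC5, CTH, DTX3L, HDAC9 and PARP9, at 0.997 to 1.21, and MTND2P28 was in place 309. CTH, which encodes a cysteine-producing enzyme, was in both sets, with differences of 2.23 for 92.1, -1.36 for Mel 270 and 0.43 for Mel 290. The median profile of the 10 genes had nearer companions, with distances of 0.61 to 0.66 for ERAP2, LAP3, IFI35, RIPK2 and NFKBIZ (with low values raised, PLSCR1 took the place of ERAP2). The aminopeptidase gene LAP3 lay at 2.25 to 2.37 in all lines, and the interferon-induced gene IFI35 at 3.11 in 92.1, 2.33 in Mel 290 and 1.51 in Mel 270.

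DDX60 and DDX60L are neighbours on chromosome 4, and their start windows are shown for comparison, DDX60 at chr4:168318703-168319002 and DDX60L at chr4:168480443-168480742, both on the minus strand and marked as above.
DDX60: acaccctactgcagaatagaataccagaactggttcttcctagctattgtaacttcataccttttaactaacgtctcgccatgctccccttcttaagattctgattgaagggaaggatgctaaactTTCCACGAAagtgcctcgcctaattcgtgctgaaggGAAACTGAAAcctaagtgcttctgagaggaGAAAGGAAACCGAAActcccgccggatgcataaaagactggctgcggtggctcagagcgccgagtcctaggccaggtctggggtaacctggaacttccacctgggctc
DDX60L: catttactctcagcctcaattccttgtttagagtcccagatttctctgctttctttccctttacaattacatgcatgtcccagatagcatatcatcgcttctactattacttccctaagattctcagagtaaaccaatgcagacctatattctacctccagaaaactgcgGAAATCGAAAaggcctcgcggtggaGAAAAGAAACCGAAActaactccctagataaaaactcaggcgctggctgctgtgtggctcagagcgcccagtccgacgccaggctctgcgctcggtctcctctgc
Each window held GAAANNGAAA 2 times, the nearer one with the letters GAAACCGAAA in both, 53 to 44 bases before the start in DDX60 and 50 to 41 bases before it in DDX60L. The match farther from the start was GAAACTGAAA in DDX60 and GAAATCGAAA in DDX60L, and TTCNNNGAA was found in DDX60 only of this pair. That farther match lay 88 to 79 bases before the start in DDX60 and 80 to 71 bases before it in DDX60L. Any link between these letters and the Mel 270 differences was not tested.

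Beyond the pair, the measured genes next to DDX60L, named after their values were seen, were PALLD, which encodes the actin-binding protein palladin, then CBR4, SH3RF1, CLCN3 and HPF1. PALLD was at 9.17 in co-culture and 6.98 alone in Mel 270, a difference of 2.19, but differed by -0.39 in 92.1 and -0.19 in Mel 290. CBR4 differed by -0.41 ± 0.32, SH3RF1 by 0.20 ± 0.30, CLCN3 by -0.51 ± 0.19 and HPF1 by -0.42 ± 0.28. On the DDX60 side ANXA10, SPOCK3 and TLL1 were below the level for testing, and CPE differed by -0.62 ± 0.61. In Mel 270 the low DDX60L value thus lay between a pair of genes that were higher in co-culture.

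**Figure D4:**
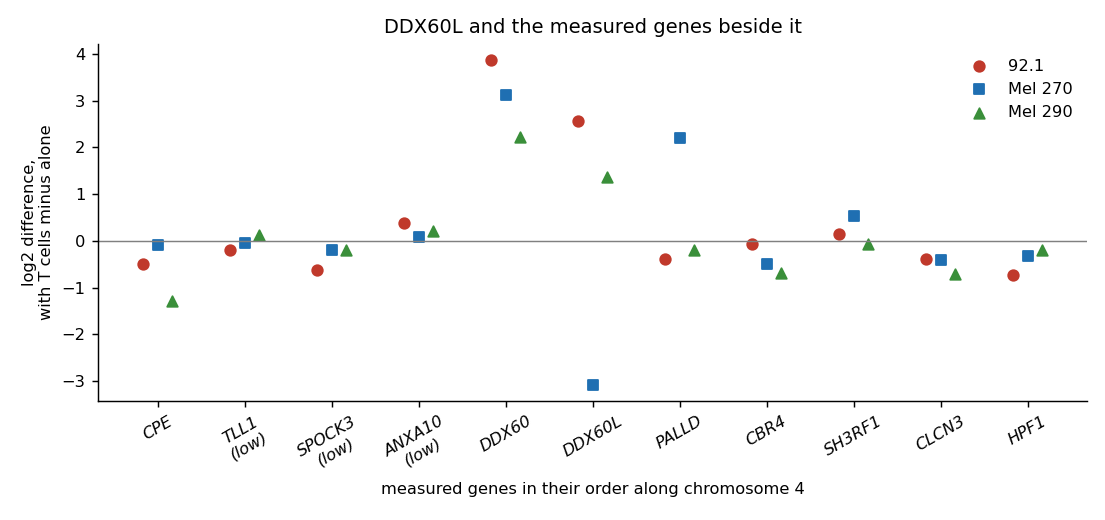
Difference between co-culture and culture alone (log2) in each line for DDX60L and the 5 measured genes on each side along chromosome 4; genes marked low were below the level for testing. In Mel 270 DDX60L is at -3.08 between DDX60 at 3.11 and PALLD at 2.19.

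The genes that act with these sensors were taken from 8 lists of 108 genes, of which 97 were measured and 78 tested. They were tested with limma with the line in the model and p-values adjusted over all 13808 genes. IRF1, the transcription factor that carries much of the interferon-gamma response, and JAK2, a kinase of the interferon-gamma receptor, were the 2 of 78 that rose and none fell, against 0.413% and 0.0362% of all tested genes. At an unadjusted p under 0.05 there were 24 of 78 higher and 11 lower, against 7.02% and 13% of all tested genes. IRF1 was at 10.79 in 92.1, 10.68 in Mel 270 and 10.96 in Mel 290 with T cells, against 5.56, 6.17 and 6.45 alone. It rose by 4.75 ± 0.42 (26.8-fold, limma adjusted p = 0.0039, higher in 3 of 3 lines), and the difference was 4.67 with low values raised. JAK2 was at 7.93, 8.62 and 9.27 with T cells, against 5.77, 6.82 and 7.04 alone, and rose by 2.07 ± 0.23 (limma adjusted p = 0.014, higher in 3 of 3 lines). The call of JAK2 was lost without 92.1 (limma adjusted p = 0.058) and without Mel 290 (limma adjusted p = 0.059). Of the other interferon receptor and transcription factor genes, IRF9 differed by 1.60 ± 0.48 (limma adjusted p = 0.067) and IRF2 by 1.30 ± 0.80 (limma adjusted p = 0.12). Of the 11 tested genes on that list 10 were higher in every line, with a median of 0.81.

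**Figure D5:**
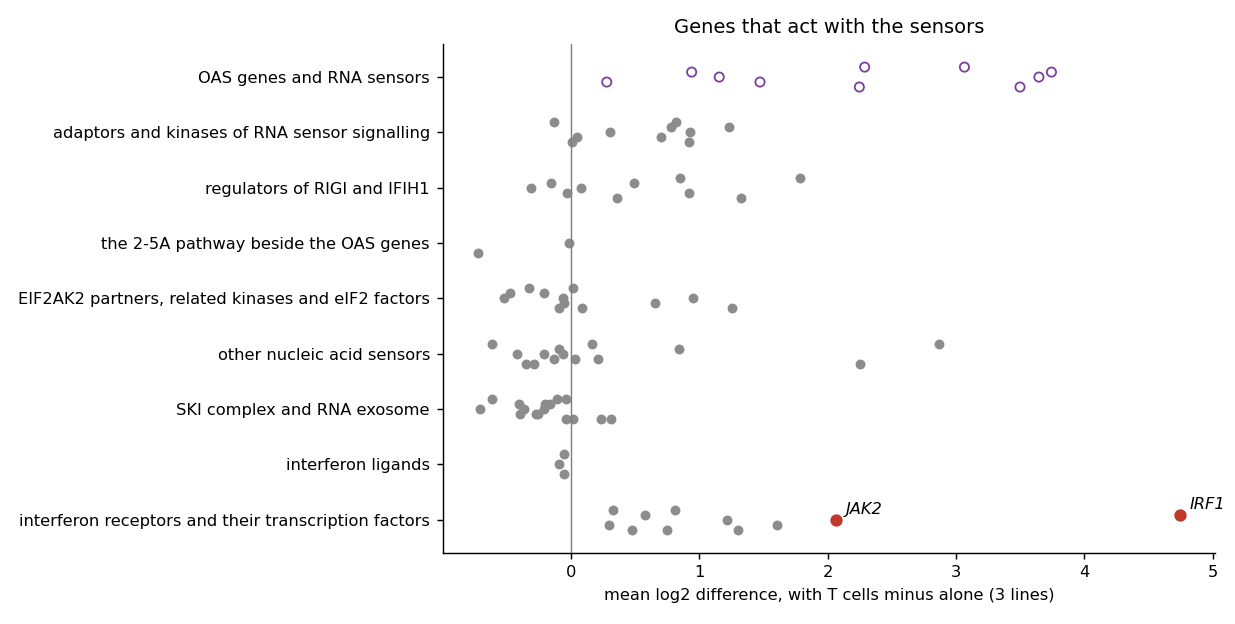
Mean difference between co-culture and culture alone (log2, 3 lines) for each tested gene of the 8 lists, with the 10 sensor and OAS genes as open points in the top row. Red points passed an adjusted p of 0.05 in limma (JAK2 and IRF1); the other tested genes of the lists lie between -0.72 and 1.78, apart from TLR3 and IFI16.

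Most of the measured interferon genes themselves were in the background range. Of 21 ligands, 16 were measured and 13 of these, IFNB1 and IFNG among them, were below 5.80 on all 6 arrays, at 2.30 to 4.97 in the co-cultures and 2.47 to 5.11 alone. The 3 tested ligand genes IFNL1, IFNL2 and IFNL3 differed by -0.06 ± 0.31, -0.09 ± 0.07 and -0.05 ± 0.30, with 0 past the threshold in limma and 0 at an unadjusted p under 0.05.

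In the adaptor and kinase list downstream of the sensors 0 of 10 genes passed in limma, and 6 were higher at an unadjusted p under 0.05 (median 0.74). STING1, the adaptor of DNA sensing, differed by 1.23 ± 0.76, TRAF3 by 0.93 ± 0.49, the kinase gene IKBKE by 0.92 ± 0.42 and the transcription factor gene IRF7 by 0.82 ± 0.11. MAVS, the adaptor shared by RIG-I and MDA5, differed by 0.01 only, with 8.21, 8.59 and 7.62 in co-culture against 8.28, 8.42 and 7.69 alone in 92.1, Mel 270 and Mel 290. Among 10 tested regulators of RIGI and IFIH1 none passed in limma, while 4 were higher and 1 lower at an unadjusted p under 0.05 (median 0.43). The deubiquitinase gene CYLD differed by 1.78 ± 1.08, TRIM25, a ubiquitin ligase gene of the RIG-I pathway, by 1.32 ± 0.41, USP15 by 0.92 ± 0.14 and ZC3HAV1, which encodes the zinc-finger antiviral protein, by 0.85 ± 0.53.

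Of the genes that act beside OAS, 2 were tested and none passed in limma. ABCE1, which encodes a ribosome recycling factor, differed by -0.72 ± 0.34, lower in every line (unadjusted p under 0.05, limma adjusted p = 0.12), and PDE12, which breaks down oligoadenylates, by -0.01 ± 0.44. Among 12 partners and relatives of EIF2AK2 none passed in limma, with 3 higher and 2 lower at an unadjusted p under 0.05. PPP1R15A, which encodes a phosphatase subunit that reverses eIF2 phosphorylation, differed by 1.26 ± 0.69, PPP1R15B by 0.95 ± 0.67 and ADAR, which edits RNA and restrains MDA5 and PKR, by 0.66 ± 0.21. EIF2AK4, the gene of the amino acid sensing eIF2 kinase GCN2, differed by -0.52 ± 0.07.

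Of the other nucleic acid sensors 0 of 14 passed the threshold in limma, with 2 higher and 3 lower at an unadjusted p under 0.05, and a median of -0.08. TLR3, the endosomal receptor for RNA, was at 10.65 in 92.1, 10.26 in Mel 270 and 7.15 in Mel 290 with T cells, against 7.57, 7.71 and 6.03 alone, a difference of 2.25 ± 1.01 (limma adjusted p = 0.083, called without Mel 290 at limma adjusted p = 0.047). The DNA sensor gene IFI16 was at 10.43 in 92.1, 11.00 in Mel 270 and 9.33 in Mel 290 with T cells, against 4.69, 10.06 and 7.41 alone. Its largest difference, in 92.1, was 5.74 from a value alone in the background range and 4.63 with low values raised, next to 1.92 for Mel 290 and 0.94 for Mel 270. NOD2, below 5.80 on 4 arrays, differed by 0.84 ± 0.87 (0.56 ± 0.80 with low values raised) and the helicase gene DHX33 by -0.61 ± 0.06. Of the 16 SKI complex and exosome genes, which hold the closest relatives of DDX60, none passed in limma, with 0 higher and 4 lower at an unadjusted p under 0.05 (median -0.21), as for EXOSC2 (-0.71 ± 0.03), SKIC8 (-0.61 ± 0.33) and EXOSC5 (-0.40 ± 0.19), while EXOSC4 differed by -0.40 ± 0.46.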

How the data were processed

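Total RNA of 6 samples was measured on Affymetrix arrays. The deposited values are log2 signals per probe set, as their range shows, made by the authors with Affymetrix Expression Console 1.2.0.20 per the submitters' processing notes; how it corrected the background, summarized probes and normalized arrays is not stated in these sources. The number of arrays limits the precision. Of 33297 probe sets 19460 had 1 gene symbol in the platform annotation, 19429 of these were matched by gene ID to RefSeq (GRCh38.p14) names, and the one with the highest mean was kept per gene (18417 genes).

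Co-culture was compared with culture alone in limma 3.58.1 (R 4.3.3; lmFit, eBayes) with cell line as a block, which left 2 residual degrees of freedom and a prior worth 3.10, with Benjamini-Hochberg adjustment over 13808 genes. Each p-value sets the mean difference against the variation of that difference between lines, with the variance moderated over all tested genes. No line has repeat cultures, so variation within a line was not measured. Pairing comes from the line: deviations from the group means correlated at 0.74 to 0.83 within a line. Between lines they were below 0, which adds nothing. Deviations of 3 lines from their mean cancel out, so these values must be negative on balance. An exact permutation test of 3 pairs cannot go below 0.25. On simulated data for 13808 genes 93.9% of changes of 2 and 19.1% of changes of 1 (log2) were recovered. These shares describe the simulated data only. Recovery was not tested separately for genes whose differences vary widely between lines, such as IFIH1 (SD 1.48), OAS3 (1.05) and RIGI (1.00). Members and lists were chosen with earlier results of these data known. In each list the genes past the threshold and in any case the 4 with the largest mean difference were named, besides all members and the 5 genes nearest to DDX60L and to the members' median. MAVS, IFNB1 and IFNG were added after their values were seen. Alternatives were cyclic loess, quantile normalization, no filter, a filter at the median, the mean of probe sets, raised low values, no block and each line left out.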

Additional observations from a re-analysis of the deposited data

Results flagged for a closer look

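DDX60L moved in opposite directions in different lines: co-culture minus alone was 2.56 in 92.1 and 1.36 in Mel 290 but -3.08 in Mel 270 (log2, 1 array per condition). The difference between the lines was not tested, since it was used to choose the gene and no line has repeat cultures. DDX60L has 1 probe set, and its value in the Mel 270 co-culture is below the level for testing; with low values raised the difference there was -1.03.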

How the results depend on the processing

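The 10 genes gave 97 mean differences over 10 alternatives, all within 1 SD over lines of the reported value. For most alternatives this was fixed in advance. Leaving out 1 of 3 lines cannot move a mean by 1 SD. Either change of filter, the mean of probe sets and the fit without the block leave each mean as it was. Only cyclic loess, quantile normalization and raised low values could have gone beyond it. Of these 95 kept their direction, and the 2 others were those of DDX60L without 92.1 (-0.86) and without Mel 290 (-0.26). The median of the 10 means was 2.10 to 2.60 with 1 line left out. Over all genes 57 were called higher and 5 lower. Without the cell line block there were 18 higher and 0 lower. The lower count was 1 after cyclic loess and 9 with a filter at the median. With 1 line left out, 47 to 76 genes were called higher and 2 to 9 lower. Of the pathway genes 2 were called higher. Without the block there was 1, IRF1, and with 1 line left out there were 1 to 2. JAK2 had an adjusted p of 0.49 in limma without the block, while IRF1 stayed between 0.0014 and 0.027 in all 10 alternatives. Of the 10 genes, limma called 0 without the block, 1 (OAS1) after cyclic loess and 5 without Mel 270, counts from which nothing is read. The cause of these shifts was not tested. Low signal limits OAS2 alone, IFIH1 in 92.1 alone, RIGI in Mel 270 alone, DDX60L in the Mel 270 co-culture, IFI16, IRF1 and JAK2 in 92.1 alone and NOD2 on 4 arrays. Counts of all tested genes with these values raised were added after seeing the data.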
